A study of Mus musculus with 3 samples.

Results

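The mouse Iroquois homeobox genes are 6 genes, Irx1 to Irx6, and they were taken by name from the 32285 features counted in every library. All 6 were present and each had UMIs (unique molecular identifiers, 1 per captured RNA molecule) in every library. They were followed through 3 single-cell RNA-seq libraries of pooled otic vesicles from mouse embryos at E10.5. One library came from Sox9Y440X/+ embryos, heterozygous for a Sox9 allele with a stop codon and named CD in the labels, and 2 libraries came from wild-type (WT) embryos. All 3 libraries used the same dissociation and the same droplet kit, which reads the 3′ end of each RNA, so levels are given as counts per 1000000 UMIs of a population (CPM) and need no correction for gene length. The CD genotype therefore rests on 1 pool, and whether each WT pool was its own litter is not in the labels. Between CD and WT the p-values therefore rest in part on the spread of the WT pair. Between populations they rest in part on how the difference within a library varies over the 3 libraries. Either spread may be technical. In both cases the test also moderates the spread of each gene toward that of all genes tested. A strain and a count of embryos per pool were not given in the sources used here.

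Iroquois proteins are transcription factors of the TALE homeobox class, which carry extra residues in the homeodomain, and they also share a short motif called the Iro box. The name comes from the Drosophila genes araucan, caupolican and mirror, which divide the eye, the head and the body wall into territories. Mammals have 2 clusters of these genes. In the mouse, Irx1, Irx2 and Irx4 lie in that order on chromosome 13, and Irx3, Irx5 and Irx6 lie in that order on chromosome 8 beside Fto, whose introns hold distant regulatory elements of Irx3. The otic vesicle is the epithelial sac that forms the whole inner ear, and by this stage it carries regional programmes that foreshadow its cochlear, vestibular and endolymphatic parts. Irx3 is known from the neural tube, where it sets the boundary between progenitor domains, Irx4 from the ventricular myocardium, and Irx5 and Irx6 from bipolar cells of the retina.

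Promoter sequences are shown for each cluster, because Irx1 with Irx2 and Irx3 with Irx5 were detected together in otic cells. Each window runs from 250 bases before to 50 bases after the RefSeq start (GRCm38.p6), and 3 of the 6 members matched an entry. The Irx3 window lies inside a longer annotated Irx3 transcript and is not shown. Irx2 (chr13:72628570-72628869, plus strand) and Irx4 (chr13:73260247-73260546, plus strand) are the windows from the chromosome 13 cluster, although Irx4 itself was scarce in otic cells. Crnde (chr8:92356071-92356370, minus strand), a long non-coding RNA that starts next to Irx5 on the opposite strand, is the window from the chromosome 8 cluster. Letters are 5′ to 3′ on the gene's strand, and capitals mark a match to a searched motif.
Irx2: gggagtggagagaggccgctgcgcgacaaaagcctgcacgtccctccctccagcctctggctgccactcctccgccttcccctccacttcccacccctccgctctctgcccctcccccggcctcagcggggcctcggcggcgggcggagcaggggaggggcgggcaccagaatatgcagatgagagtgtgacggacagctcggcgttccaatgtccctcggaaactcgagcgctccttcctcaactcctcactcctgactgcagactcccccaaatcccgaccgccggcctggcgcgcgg
Irx4: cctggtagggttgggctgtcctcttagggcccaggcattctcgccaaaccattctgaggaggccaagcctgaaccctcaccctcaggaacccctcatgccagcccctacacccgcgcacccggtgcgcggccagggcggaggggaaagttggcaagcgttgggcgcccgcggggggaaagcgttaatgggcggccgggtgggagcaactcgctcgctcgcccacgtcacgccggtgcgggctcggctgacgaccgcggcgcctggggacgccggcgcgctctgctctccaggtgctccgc
Crnde: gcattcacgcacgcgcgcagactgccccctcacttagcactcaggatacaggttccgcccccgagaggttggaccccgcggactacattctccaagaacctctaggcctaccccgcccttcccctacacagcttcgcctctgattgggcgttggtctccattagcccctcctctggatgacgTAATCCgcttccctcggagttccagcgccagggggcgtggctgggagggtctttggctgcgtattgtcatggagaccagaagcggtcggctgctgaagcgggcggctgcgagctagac
The motifs searched on both strands were TAATCC, the core bound by OTX proteins, ACANNTGT, an Iroquois type palindrome, and ATTGTT, a SOX type core. The 3 windows held 1 match in all, a TAATCC at position 183 of the Crnde window, counted from its 5′ end. Of 32817 promoters of the same length, 7.06% held TAATCC, 7.38% held ACANNTGT and 10.7% held ATTGTT. The GC content was 69% for Irx2, 70.7% for Irx4 and 62.7% for Crnde, against a median of 52.7% over all promoters.

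The libraries held 12322 barcodes for CD, 8330 for WT replicate 1 and 16649 for WT replicate 2, of which 8548, 6564 and 11018 passed the cell filter, at 186439890, 157373393 and 202584468 UMIs in all. Pairs of libraries shared 28 to 55 barcode sequences, 0.336 to 0.492% of the smaller library. Populations were gated on marker genes that include no Irx gene, which gave 2778 otic cells in CD, 2537 in WT replicate 1 and 4083 in WT replicate 2. The 10 otic markers that the gate did not use summed to 1511, 1661 and 1991 CPM in those otic cells, against 311, 293 and 364 CPM in the neural tube gate of the same libraries. The neural tube gate of WT replicate 2 went against its label: its 43 cells had 752 CPM of neural tube markers, against 2624 CPM in CD and 3098 CPM in WT replicate 1, with 906 CPM of mesenchyme markers and 1630 CPM of neuroblast markers, and 27 of the 43 also passed the mesenchyme gate. The tests of Iroquois genes in neural tube, and the counts over gene lists there, are therefore given with and without that library. The targeted gene, Sox9, had 688 CPM in CD otic cells and 409 and 338 CPM in WT otic cells, but tags from the 3′ end do not cover the stop codon, so the level is no check of the genotype.

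Irx3 and Irx5 were the most abundant Iroquois RNAs in otic cells, Irx1 and Irx2 were lower, Irx6 was low but well counted, and Irx4 was scarce. Irx3 stood at 128 CPM in CD otic cells and at 120 and 123 CPM in WT otic cells. Irx5 stood at 94.0 CPM in CD, against 79.1 and 86.7 CPM in WT. Their levels did not overlap with each other in any library. Irx1 stood at 58.3 CPM in CD, against 62.6 and 58.5 CPM in WT, and Irx2 at 29.6 CPM in CD, against 30.7 and 28.2 CPM in WT. Irx6 had 4.26 CPM in CD, against 4.28 and 4.01 CPM in WT, from 303 UMIs in CD and 316 and 357 in WT, where 3 counts would be 0.0422 CPM in CD. Irx4 had 0.394 CPM in CD, from 28 UMIs, and 0.162 and 0.427 CPM in WT. The order Irx3, Irx5, Irx1, Irx2, Irx6, Irx4 was the same in all 3 libraries.

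Counted as cells with at least 1 UMI, 62.7% of CD otic cells and 61.8% and 57.7% of WT otic cells held Irx3. After every cell was thinned to 5000 UMIs, so that depth was equal, the Irx3 share was 35.7% in CD and 34.3% and 35.2% in WT. The thinned share was 27.6% in CD and 26.4% and 28.3% in WT for Irx5, 19.0% in CD and 21.4% and 20.5% in WT for Irx1, and 11.8% in CD and 12.6% and 11.2% in WT for Irx2. Exact 95% intervals in CD ran from 33.9 to 37.5% for Irx3, 25.9 to 29.3% for Irx5, 17.5 to 20.5% for Irx1 and 10.6 to 13.1% for Irx2. Erythroid cells, which should lack these genes, gave thinned shares of 0.977% in CD and 0.470% and 2.04% in WT for Irx1, and of 1.30% in CD and 0.470% and 1.53% in WT for Irx3. Their median depth before thinning was 40710 UMIs per cell in CD, against 22620 in CD otic cells, and 5 erythroid markers summed to 401800 CPM in erythroid cells of CD, against 414000 and 393500 CPM in WT, so fewer of their thinned UMIs were left for other genes than in otic cells. Before thinning, UMIs of Irx1, Irx2, Irx3 and Irx5 were uneven over otic cells. In CD, 26.2% of otic cells held 5 or more Irx3 UMIs while 1036 of 2778 held none. The highest cell held 41 Irx3 UMIs in CD and 49 and 44 in WT. In CD, 5 or more UMIs were held by 19.0% of otic cells for Irx5, 11.9% for Irx1 and 3.64% for Irx2. None was held by 1236, 1652 and 1848 cells for these 3 genes. Interval estimates for these shares and levels cover counting error only.

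**Figure D1:**
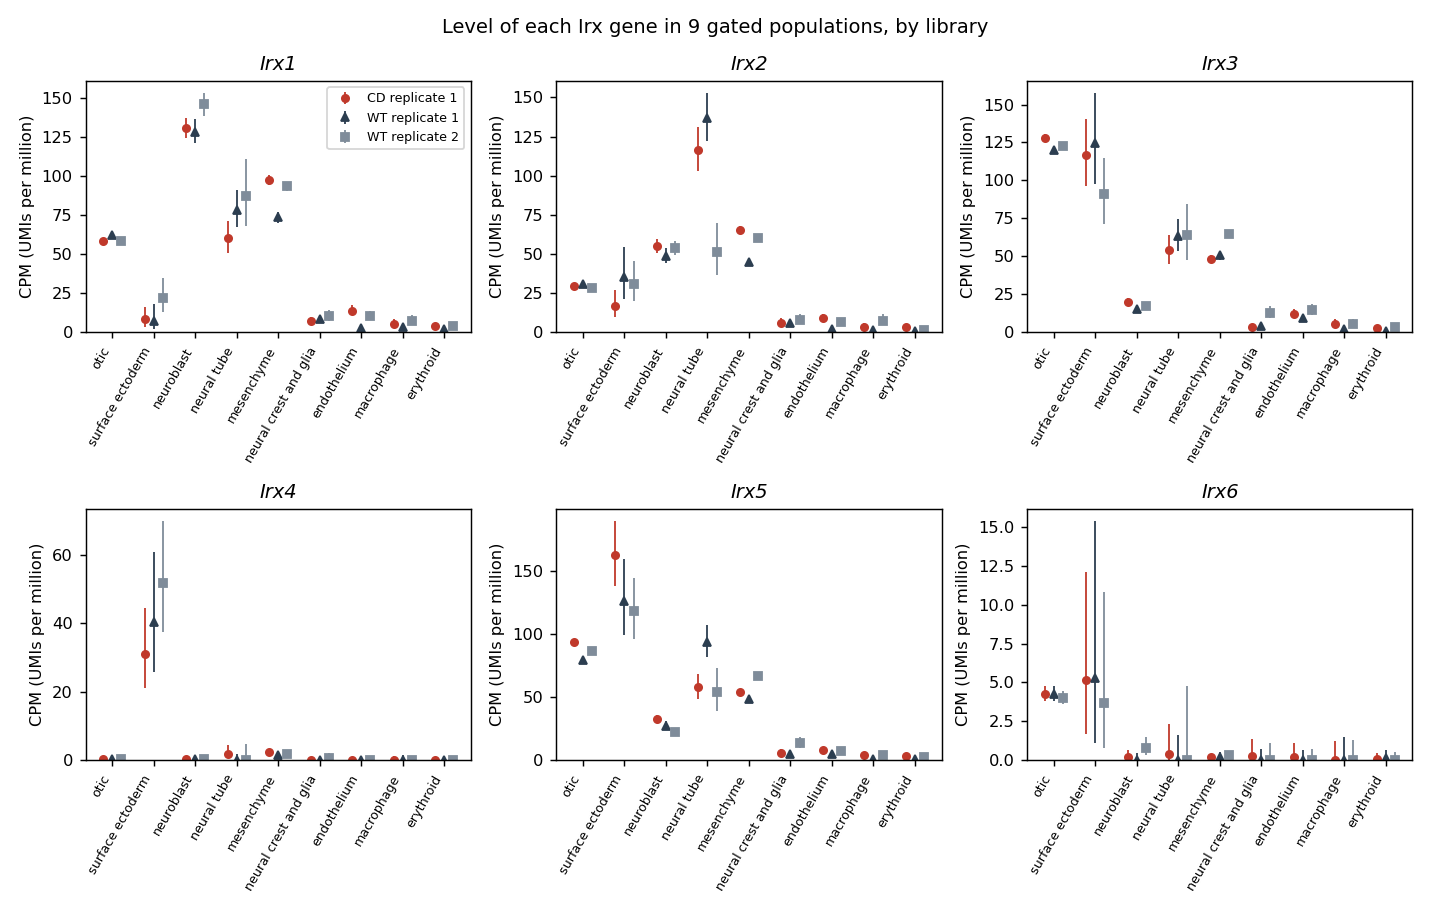
Level of each Iroquois gene, in CPM, in 9 gated populations, with 1 point per library and bars for the exact 95% Poisson interval of the count. Irx1 is highest in neuroblasts, Irx3 in otic and surface ectoderm cells, and Irx4 in surface ectoderm, where it lies between 31.1 and 51.8 CPM.

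The 6 genes were distributed differently over the 9 populations, as the plot of levels by population shows. Irx1 was highest in neuroblasts, the delaminated precursors of the inner ear neurons, at 131 CPM in CD, against 129 and 146 CPM in WT. Its next levels were in mesenchyme (88.1 ± 12.9 CPM, SD over 3 libraries), neural tube (75.4 ± 13.7, with 60.4 CPM in CD, against 78.5 and 87.4 CPM in WT) and otic cells (59.8 ± 2.43), and mesenchyme overlapped with neural tube and neural tube with otic cells. Irx2 was highest in the neural tube gate at 117 CPM in CD, against 137 CPM in WT replicate 1 and only 51.4 CPM in WT replicate 2, so its range overlapped that of mesenchyme (56.8 ± 10.7 CPM), the next level. Irx2 in neuroblasts averaged 52.5 ± 3.34 CPM and in otic cells 29.5 ± 1.24 CPM, with no overlap between these populations.

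Irx3 and Irx5 both had their 2 highest levels in otic cells and surface ectoderm, in opposite order. Irx3 averaged 124 ± 4.18 CPM in otic cells and 111 ± 17.6 CPM in surface ectoderm, which overlapped, then 60.6 ± 5.65 CPM in neural tube, 54.7 ± 8.89 CPM in mesenchyme and 17.4 ± 2.28 CPM in neuroblasts. Irx5 averaged 136 ± 23.5 CPM in surface ectoderm, 86.6 ± 7.46 CPM in otic cells, 68.6 ± 22.03 CPM in neural tube, 56.3 ± 9.39 CPM in mesenchyme and 27.3 ± 5.00 CPM in neuroblasts. In the neural tube gate Irx3 had 54.1 CPM in CD, against 63.5 and 64.3 CPM in WT, and Irx5 had 57.9 CPM in CD, against 93.95 and 53.98 CPM in WT. Surface ectoderm and otic levels of Irx5 did not overlap, while its otic and neural tube levels did. Neuroblasts thus had high Irx1 and low Irx3 and Irx5 in each of the 3 libraries.

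Irx4 was highest in surface ectoderm, with no overlap with any of the other 8 populations, at 31.1 CPM in CD, against 40.5 and 51.8 CPM in WT, from 30, 23 and 42 UMIs. Of the surface ectoderm cells, 32.7% held an Irx4 UMI in CD (exact 95% interval 20.7 to 46.7%) and 45.7% and 49.1% in WT. The population is small, at 55 cells in CD and 35 and 57 in WT. Its 6 epidermal markers summed to 1217 CPM in CD, against 1355 and 1298 CPM in WT. The gate itself requires Trp63, 1 of these 6, so the sum is no independent check of the label. Mesenchyme came next for Irx4 with 2.44 CPM in CD, against 1.41 and 1.79 CPM in WT, and endothelium and macrophages had no Irx4 UMI in any library. Irx6 had 5.18 CPM in CD, against 5.28 and 3.70 CPM in WT in surface ectoderm, from 5, 3 and 3 UMIs, which overlapped with its otic levels. Of the other 7 populations none averaged more than 0.308 CPM of Irx6. Neural crest and glia, endothelium, macrophages and erythroid cells averaged at most 12.1 CPM of any member.

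Otic cells were then compared with mesenchyme, the periotic tissue around the vesicle, in a fit over all genes with edgeR's quasi-likelihood test and the library as a block, where a call needs a Benjamini-Hochberg adjusted p under 0.05. All 6 members were called, 3 higher and 3 lower in otic cells, in a comparison in which 32.6% of 16755 genes were called higher and 29.8% lower, so a call by itself says little. Irx6 had the largest rise (log2 fold change 3.89 ± 0.24 SE, adjusted p = 5.2e-05), at about 4 CPM in otic cells against 0.188 CPM in CD mesenchyme and 0.220 and 0.343 CPM in WT mesenchyme. Irx3 rose by 1.06 ± 0.09 (adjusted p = 0.00017) and Irx5 by 0.50 ± 0.08 (adjusted p = 0.0026), again on the log2 scale. Irx1 fell by 0.68 ± 0.10 (adjusted p = 0.0018), Irx2 by 1.06 ± 0.12 (adjusted p = 0.00058) and Irx4 by 2.65 ± 0.27 (adjusted p = 0.00034). The chromosome 8 genes were thus the ones higher in otic cells, and the chromosome 13 genes the ones higher in mesenchyme.

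Against neural tube, Irx3 and Irx6 were higher in otic cells and Irx2 was lower, in a comparison in which 13% of 16069 genes were called higher and 9.55% lower. Irx3 rose by 1.01 ± 0.11 (log2, adjusted p = 5.8e-06) and was 1.01 ± 0.11 (adjusted p = 3.4e-05) without WT replicate 2, whose neural tube gate stood apart. Irx6 was called with an adjusted p of 0.0015 (0.0041 without WT replicate 2). It had 976 UMIs in otic cells and 1 UMI in neural tube, in the CD library, so its summed level was 22.6 times as high in otic cells, with an exact 95% counting interval of 4.05 to 895. Irx2 fell by 1.82 ± 0.18 (adjusted p = 1.7e-06), and by 2.14 ± 0.10 (adjusted p = 2.9e-08) without that library. Irx1 (log2 fold change −0.33 ± 0.12), Irx5 (0.29 ± 0.16) and Irx4 (−1.07 ± 1.17) did not pass, nor did they without WT replicate 2 (−0.27 ± 0.11 for Irx1, 0.13 ± 0.17 for Irx5 and −1.54 ± 1.18 for Irx4). Irx5 had 0.65 ± 0.17 (adjusted p = 0.0021) when WT replicate 1 was left out.

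Between neural tube and mesenchyme none of the 5 members tested passed in edgeR's test, while 7.09% of 14009 genes were called higher and 6.07% lower in neural tube and 3881 genes had an unadjusted p under 0.05. The result depends on WT replicate 2. Irx2 had 0.84 ± 0.26 (log2, adjusted p = 0.067) with it and 1.18 ± 0.14 (adjusted p = 2.3e-05) without it, and Irx5 had 0.29 ± 0.21 (adjusted p = 0.42) with it and 0.52 ± 0.16 (adjusted p = 0.027) without it. Irx1 (−0.28 ± 0.15 with it and −0.33 ± 0.14 without it), Irx3 (0.13 ± 0.12 and 0.21 ± 0.11) and Irx4 (−1.52 ± 0.81 and −1.24 ± 0.76) did not pass either way.

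Within the otic epithelium, 3 subsets were taken by a UMI of a regional gene: Rorb, which encodes an orphan nuclear receptor, Lhx1, which encodes a LIM homeobox factor, and Otx1 or Otx2, homeobox genes of the ventral and lateral otocyst. Rorb-positive cells numbered 410 in CD, against 415 and 825 in WT, Lhx1-positive cells 149 in CD, against 247 and 292 in WT, and Otx-positive cells 571 in CD, against 661 and 931 in WT. The subsets overlap, since 51.0% of Lhx1-positive cells in CD and 56.3% in WT replicate 1 were also Otx-positive. Positive cells were also deeper than negative cells (median 27670 UMIs in Rorb-positive and 21790 in Rorb-negative CD cells), so shares after thinning are given for the 4 abundant members in each subset.

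Rorb-positive cells had more of 5 of the 6 members, where 7.11% of 15929 genes were called higher and 8.43% lower. Irx3 had 205 CPM in CD Rorb-positive cells, and 207 and 183 CPM in WT, against 111 CPM in CD Rorb-negative cells and 99.3 and 104 CPM in WT. Every positive value exceeded every negative one, and the log2 fold change was 0.92 ± 0.05 (edgeR, adjusted p = 1.4e-07). Irx5 had 155, 143 and 140 CPM in Rorb-positive cells of CD, WT replicate 1 and WT replicate 2, against 80.5, 64.0 and 70.6 CPM in Rorb-negative cells, a change of 1.03 ± 0.05 (adjusted p = 5.1e-08). Irx6 rose by 1.34 ± 0.14, with 8.22, 9.69 and 6.70 CPM in positive cells against 3.39, 2.99 and 3.19 CPM in negative cells. Irx1 rose by 0.77 ± 0.05 and Irx2 by 0.93 ± 0.05, and Irx4 did not pass. At equal depth, 57.0% of Rorb-positive CD cells (exact 95% interval 52.0 to 61.8%) and 55.7% and 55.8% of Rorb-positive WT cells held Irx3, against 31.9% in CD and 30.1% and 29.8% in WT among Rorb-negative cells. The share for Irx5 was 43.8% in CD and 46.7% and 46.7% in WT, against 24.7% in CD and 22.4% and 23.5% in WT among Rorb-negative cells. For Irx1 it was 28.4% in CD and 35.2% and 29.4% in WT, against 17.3% in CD and 18.7% and 18.2% in WT, and for Irx2 21.0% in CD and 22.9% and 17.2% in WT, against 10.2% in CD and 10.51% and 9.60% in WT. No share of positive cells overlapped with one of negative cells for these 4 genes.

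Lhx1-positive cells had more of the same number of members, 5 of 6, where 3.15% of 15832 genes were called higher and 4.09% lower. Irx1 and Irx2 each rose by 1.44 (SE 0.05 for Irx1 and 0.07 for Irx2), Irx3 by 0.45 ± 0.06 (adjusted p = 0.00090) and Irx5 by 0.57 ± 0.07 (adjusted p = 0.00032). Irx1 reached 148 CPM in CD Lhx1-positive cells, and 134 and 150 CPM in WT, against 52.0 CPM in CD Lhx1-negative cells and 53.0 and 49.7 CPM in WT. Irx6 rose by 1.16 ± 0.16, with 7.67, 8.66 and 9.16 CPM in Lhx1-positive cells of CD, WT replicate 1 and WT replicate 2, against 4.02, 3.68 and 3.52 CPM in Lhx1-negative cells. Without the library as a block, Irx3 (adjusted p = 0.078) and Irx5 (adjusted p = 0.065) no longer passed. At equal depth 46.6% of CD Lhx1-positive cells (exact 95% interval 38.4 to 54.99%) and 42.1% and 43.9% of WT ones held Irx1, against 17.4% in CD and 19.2% and 18.7% in WT among Lhx1-negative cells. For Irx2 the share was 33.1% in CD and 25.5% and 30.4% in WT, against 10.6% in CD and 11.2% and 9.64% in WT. For Irx3 it was 41.9% in CD and 52.2% and 51.9% in WT, against 35.3% in CD and 32.4% and 33.8% in WT, and for Irx5 43.9% in CD and 39.3% and 49.5% in WT, against 26.6% in CD and 25.02% and 26.6% in WT. Positive and negative cells did not overlap for any of these 4 genes, and the CD shares of Irx3 were the closest to each other. Neuroblast markers, 6 in all and none at 0, summed to 601 CPM in CD Lhx1-positive cells, and 142 and 289 CPM in WT, against 243 CPM in CD Lhx1-negative cells and 206 and 279 CPM in WT. Their part in these results was not tested.

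In Otx-positive cells Irx1 and Irx2 rose while Irx3 and Irx5 fell, where 12.2% of 15846 genes were called higher and 11.4% lower. Irx1 had 145 CPM in CD Otx-positive cells, and 120 and 106 CPM in WT, against 29.6 CPM in CD Otx-negative cells and 35.1 and 39.2 CPM in WT, a log2 fold change of 1.82 ± 0.13 (edgeR, adjusted p = 4.1e-05). Irx2 rose by 1.66 ± 0.09 (adjusted p = 9.8e-06), with 67.4, 56.5 and 51.0 CPM in Otx-positive cells of CD, WT replicate 1 and WT replicate 2 against 17.1, 18.3 and 19.1 CPM in Otx-negative cells. Irx3 fell by 0.58 ± 0.03 (adjusted p = 1.4e-05), to 92.9, 94.1 and 87.1 CPM in Otx-positive cells against 140, 132 and 137 CPM in Otx-negative cells. Irx5 fell by 0.44 ± 0.03 (adjusted p = 4.8e-05), to 73.9, 66.0 and 67.7 CPM against 101, 85.4 and 94.3 CPM. No group of values overlapped for these 4 genes. Irx6 (−0.15 ± 0.14) and Irx4 (−0.81 ± 0.38) did not pass. At equal depth 48.5% of CD Otx-positive cells (exact 95% interval 44.3 to 52.7%) held Irx1, and 43.1% and 37.3% in WT, against 11.2% of CD Otx-negative cells and 13.7% and 15.4% in WT. The Irx2 share was 26.9% in CD and 24.8% and 20.7% in WT, against 7.85% in CD and 8.19% and 8.27% in WT among Otx-negative cells. Irx3 was held by 29.5% in CD and 30.7% and 29.8% in WT, against 37.3% in CD and 35.6% and 36.8% in WT, and Irx5 by 23.7% in CD and 23.1% and 25.6% in WT, against 28.6% in CD and 27.6% and 29.1% in WT. The thinned shares thus kept the direction of the levels for all 4 genes in each library.

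**Figure D2:**
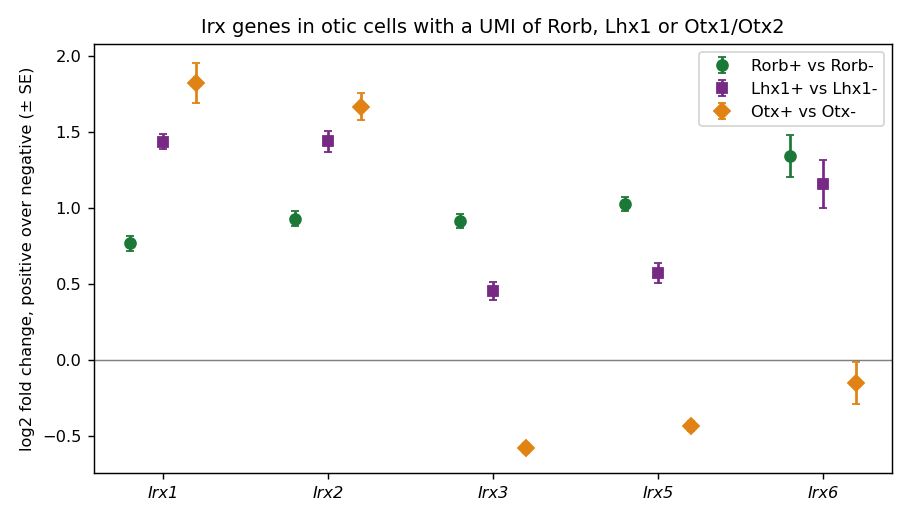
Log2 fold change of 5 Iroquois genes between positive and negative otic cells for 3 regional genes, with bars of 1 SE from a fit over 3 libraries. Irx1 and Irx2 lie above 0 in all 3 comparisons, while Irx3 and Irx5 lie above 0 for Rorb and Lhx1 and below 0 for Otx (−0.58 and −0.44).

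Cells were next examined for pairs of members, at 5000 UMIs per cell, as a description. The log2 odds ratio of co-detection is above 0 where a cell with one gene holds the other more often. In otic cells Irx1 and Irx2 had 1.99 in CD and 1.89 and 2.06 in WT: 26.6% of Irx1-positive CD cells held Irx2, against 8.35% of Irx1-negative ones. Irx3 and Irx5 had 2.18 in CD and 2.28 and 2.64 in WT, with 47.4% of Irx3-positive CD cells holding Irx5 against 16.6% of Irx3-negative ones. Irx6, the third gene of the chromosome 8 cluster, went with both: its log2 odds ratio was 1.91 in CD and 2.76 and 3.38 in WT with Irx3, from 37, 22 and 72 cells with both, and 2.13 in CD and 3.62 and 2.66 in WT with Irx5. Pairs of 1 abundant member from each cluster were lower, with means over the 3 libraries of 0.20 to 0.43. Irx1 with Irx3 had −0.04 in CD and 0.34 and 0.30 in WT, Irx1 with Irx5 had 0.0048 in CD and 0.24 and 0.46 in WT, and Irx2 with Irx5 had 0.48 in CD and 0.12 and 0.48 in WT. Irx2 with Irx3 had 0.34 in CD and 0.46 and 0.47 in WT, a mean of 0.43 ± 0.07 (SD over 3 libraries), and 0.18 ± 0.13 at 3000 UMIs per cell. Irx6 was also above 0 with the other cluster, at 0.45 in CD and 1.07 and 1.27 in WT with Irx1, from 13, 10 and 32 cells with both, and at 0.42 in CD and 1.02 and 0.45 in WT with Irx2, from 8, 6 and 12 cells. No interval was computed for an odds ratio within a library, and in counts this sparse the low values are not read as a pattern.

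**Figure D3:**
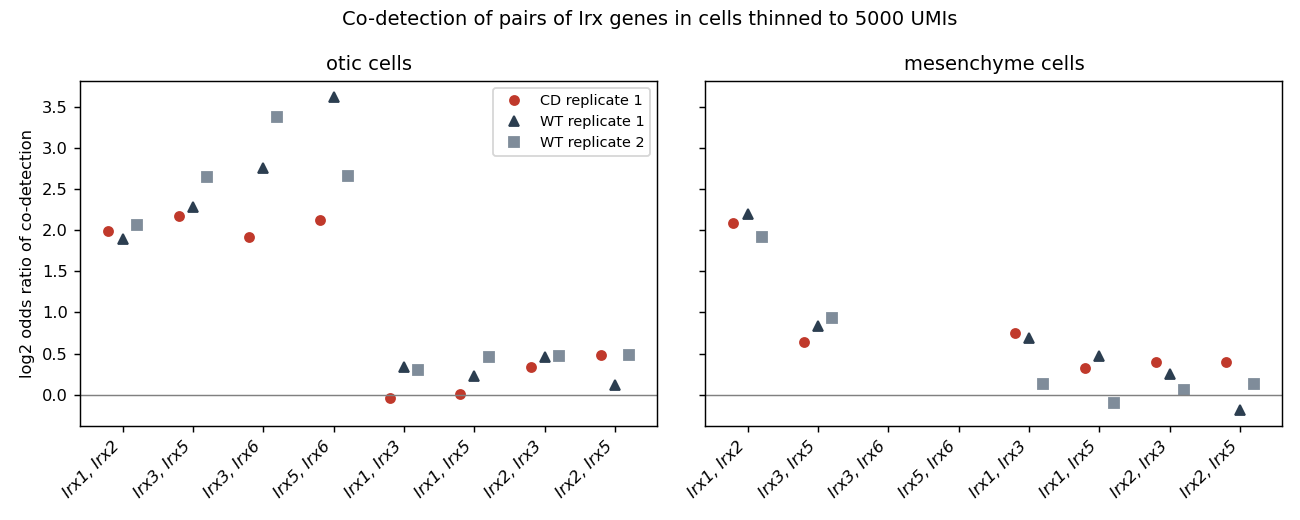
Log2 odds ratio of co-detection of pairs of Iroquois genes in otic and mesenchyme cells thinned to 5000 UMIs, with 1 point per library and pairs of 1 cluster on the left. Both pairs with Irx6 are left out in mesenchyme, where at most 2 cells held both genes, and Irx1 with Irx2 lies near 2 in both tissues.

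The pairing of Irx1 and Irx2 was as large in mesenchyme (2.08 in CD and 2.19 and 1.91 in WT), whereas Irx3 and Irx5 had 0.65 in CD and 0.84 and 0.94 in WT there. The difference between tissues was not tested. Taking each cluster by its more abundant pair, 13.5% of thinned CD otic cells and 14.5% and 13.3% of WT ones held Irx1 or Irx2 alone, 34.2% in CD and 30.7% and 31.8% in WT held Irx3 or Irx5 alone, and 12.2% in CD and 13.9% and 13.1% in WT held both. The other 40.1% in CD and 41.0% and 41.8% in WT held none of the 4. Among Otx-positive cells the class with Irx1 or Irx2 alone came to 31.5% in CD and 27.8% and 22.9% in WT, and the class with Irx3 or Irx5 alone to 13.0% in CD and 17.6% and 18.3% in WT. A further 27.2% of Otx-positive cells in CD and 24.8% and 23.4% in WT held genes of both pairs, with a log2 odds ratio between the pairs of 0.91 in CD and 0.60 and 0.98 in WT, against 0.08 in CD and 0.36 and 0.38 in WT over all otic cells.

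For each of the 4 abundant members, the genes most like it were those with the highest log2 odds ratio, taken as the lowest over the 3 libraries, among 8083 other genes with a UMI in at least 5% of thinned otic cells. The nearest gene to Irx2 was Irx1, and Irx2 ranked 3 of 8083 for Irx1. Irx3 and Irx5 ranked 1 for each other. Across the clusters, Irx3 ranked 2616 and Irx5 ranked 1927 for Irx1, while Irx3 ranked 155 and Irx5 ranked 867 for Irx2. Seen from the other cluster, Irx2 ranked 109 for Irx3 and 474 for Irx5, and Irx1 ranked 2406 for Irx3 and 1544 for Irx5. Ntrk2, which encodes the BDNF receptor TrkB, and Cyp26a1, which encodes an enzyme that degrades retinoic acid, led for Irx1: 55.4% of Ntrk2-positive CD cells held Irx1 against 16.6% of Ntrk2-negative ones, and 55.8% of Cyp26a1-positive CD cells against 16.1% of Cyp26a1-negative ones. The log2 odds ratios with Irx1 were 2.64 in CD and 2.04 and 2.00 in WT for Ntrk2, and 2.72 in CD and 2.15 and 1.96 in WT for Cyp26a1. Spp1, which encodes osteopontin, and Adamts9, a secreted metalloprotease gene, completed the 5 for Irx1, and the same 4 non-Iroquois genes made up the rest of the 5 for Irx2.

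For both Irx3 and Irx5, the gene after their own partner was Crnde, whose promoter is printed above. Its log2 odds ratio was 1.76 in CD and 1.60 and 2.06 in WT with Irx3, and 1.71 in CD and 1.87 and 2.00 in WT with Irx5. Nr2f1, which encodes an orphan nuclear receptor, and Itih5 were on both lists, with Chst2, a sulfotransferase gene, for Irx3 and Pax2 for Irx5. Pax2 is one of the otic gate genes, so its odds ratio is taken among cells chosen in part by it. At the other end Plxna4, a semaphorin co-receptor gene, Sema3e, a semaphorin gene, and Hmx2 were the 3 most unlike both genes. Of Plxna4-positive CD cells 12.7%, and 13.3% and 13.0% in WT, held Irx3, against 38.5% of Plxna4-negative CD cells and 37.2% and 38.5% in WT. Hmx2 is used by the otic gate. For Irx1 and Irx2 the unlimited rule named ribosomal protein genes present in nearly every cell, so a limit of 95% of cells was added after the values were seen. Under it Prr15, Pou3f3 and Gchfr were the most unlike Irx1, and 5.09% of Prr15-positive CD cells and 6.11% and 5.63% in WT held Irx1 against 20.9% of Prr15-negative CD cells and 23.8% and 21.4% in WT.

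A list of 30 genes of otic territories placed the clusters further. Irx1 and Irx2 went with Otx1 and Tbx1, which were below 0 with Irx3 and Irx5, and Irx3 and Irx5 went with Gbx2, a homeobox gene of the dorsal and medial otocyst, which was below 0 with Irx1 and Irx2. Spp1 was above 0 with all 4 as a mean over the libraries, at 2.09 with Irx1 and 1.69 with Irx2 and at 0.21 with Irx3 and 0.39 with Irx5. Irx3 and Irx5 also went against Oc90, Hmx3, Tbx3 and Aldh1a2. Of Gbx2-positive CD cells 7.09% held Irx1, and 7.99% and 10.8% in WT, against 21.2% of Gbx2-negative CD cells and 23.3% and 21.5% in WT. Irx3 showed the opposite with Gbx2, in 49.9% of Gbx2-positive CD cells, and 46.0% and 53.5% in WT, against 33.0% of Gbx2-negative CD cells and 32.7% and 33.3% in WT. Tbx1, a T-box gene needed for otic growth, was the reverse: Irx1 was found in 33.2% of Tbx1-positive CD cells, and 34.8% and 28.4% in WT, against 11.3% of Tbx1-negative CD cells and 13.8% and 16.2% in WT.

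Aldh1a2 makes retinoic acid, and its 87 positive cells in CD and 90 and 165 in WT were poor in Irx3, with 11.5% in CD and 11.1% and 6.06% in WT, against 36.5% of Aldh1a2-negative CD cells and 35.2% and 36.4% in WT. Oc90, which encodes the otoconial matrix protein otoconin, had mean log2 odds ratios of −1.32 with Irx3 and −1.34 with Irx5 over the 3 libraries, against 0.40 with Irx1 and 0.23 with Irx2. Hmx3, a vestibular homeobox gene that the otic gate uses, had −1.44 with Irx3 and −1.36 with Irx5. Dlx5, a distal-less homeobox gene of the dorsal otocyst, was below 0 with all 4, from −0.47 with Irx3 to −1.04 with Irx2. Lhx1 had 2.65 with Irx1 and 2.44 with Irx2, but with Irx3 it ran from −0.36 in CD to 1.90 in WT replicate 1, on 47 and 75 Lhx1-positive cells, and with Irx5 it had 1.24 in CD and 1.17 and 1.64 in WT.

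**Figure D4:**
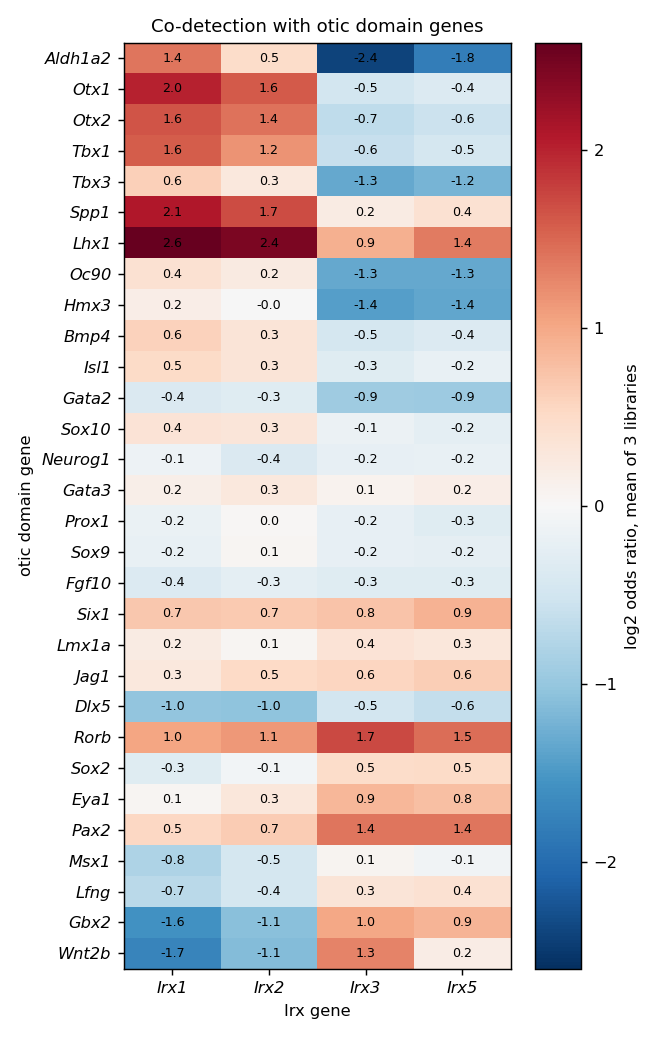
Log2 odds ratio of co-detection between 4 Iroquois genes (columns) and 30 genes of otic territories (rows), as the mean over 3 libraries, with red above 0 and blue below 0. Otx1, Tbx1 and Gbx2 take opposite signs for Irx1 and Irx2 against Irx3 and Irx5, and Pax2 and Rorb are above 0 in all 4 columns.

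Genes that lie beside the clusters were read next, from a list of 11. In Rorb-positive cells 3 of them rose and 1 fell: Crnde by 0.99 ± 0.06 and Irx3os, a non-coding RNA overlapping Irx3 on the opposite strand, by 1.23 ± 0.15, with Mmp2 by 0.76 ± 0.11, and Mrpl36 lower at −0.18 ± 0.04. The median of the 11 was 0.04, against 0.01 over all genes. In Otx-positive cells Crnde fell by 0.68 ± 0.05 and Irx3os fell by 0.47 ± 0.14, among 2 that rose and 3 that fell, which is the direction of Irx3 and Irx5. Crnde had 19.7, 17.8 and 17.1 CPM in Otx-positive cells of CD, WT replicate 1 and WT replicate 2, against 34.4, 27.2 and 26.2 CPM in Otx-negative cells. In Lhx1-positive cells Mmp2 (0.71 ± 0.11) and Crnde (0.35 ± 0.06) rose. Over all genes, 7.11% were called higher and 8.43% lower for Rorb, 12.2% and 11.4% for Otx, and 3.15% and 4.09% for Lhx1. Fto, the other neighbour of Irx3, had 46.6, 37.3 and 38.0 CPM in Rorb-positive cells against 43.6, 34.0 and 34.8 CPM in Rorb-negative cells and was called in none of the 3 subset comparisons. Whether strand was used in counting is not given in the sources used here. It is therefore not known here whether reads of Irx3 and Irx3os were told apart where they overlap. Against mesenchyme, 6 of the 11 neighbours rose and 2 fell in otic cells, where 32.6% of all genes were called higher and 29.8% lower. Against neural tube, 2 rose and 1 fell (3 and 1 without WT replicate 2), where 13% of all genes were called higher and 9.55% lower. Their median log2 fold change was 0.22 against mesenchyme and 0.28 against neural tube, against 0.02 and 0.07 over all genes.

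Other TALE homeobox genes were read from a list of 12. MEIS and PKNOX proteins are cofactors of homeodomain factors, and TGIF proteins are repressors. In Rorb-positive cells 1 of the 12 rose and 2 fell, Meis1 (−0.66 ± 0.07) and Meis2 (−0.54 ± 0.05). In Lhx1-positive cells 1 rose (Tgif2, 0.23 ± 0.06) and 3 fell, Meis2 the most at −0.56 ± 0.05. In Otx-positive cells 2 rose, with Pknox2 at 1.02 ± 0.08, and 3 fell, with Tgif1 at −0.51 ± 0.04. Of all genes, 7.11% were called higher and 8.43% lower for Rorb, 3.15% and 4.09% for Lhx1, and 12.2% and 11.4% for Otx. Meis2 had 213, 115 and 154 CPM in Rorb-positive cells of CD, WT replicate 1 and WT replicate 2, against 277, 179 and 233 CPM in Rorb-negative cells. Between tissues, 4 of the 12 rose and 5 fell in otic cells against mesenchyme, where 32.6% and 29.8% of all genes did so, and 1 rose and 5 fell against neural tube, with and without WT replicate 2, where 13% and 9.55% of all genes did so.

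Genes that pattern the neural tube together with Irx3 were scarce in otic cells. Of the 12 listed, 7 were tested against neural tube and 5 fell, with log2 fold changes of −7.31 ± 0.25 for Pax6 (−7.47 ± 0.18 without WT replicate 2) and −6.54 ± 0.38 for Pax3 (−7.22 ± 0.12 without it). Without that library 5 of 6 tested fell. With all libraries, 9.55% of all genes were called lower. Pax6 had 0.422 CPM in CD otic cells and 0.595 and 0.112 CPM in WT otic cells, against 64.6 CPM in CD neural tube and 110 and 8.996 CPM in WT neural tube. In neural tube against mesenchyme, 5 of 6 tested rose, where 7.09% of all genes were called higher. Without WT replicate 2 the other, Nkx6-1, fell (−8.79 ± 1.64). Its SE was above those of the 5 that rose, so the size of its change is not read. In otic cells against mesenchyme 1 of 6 rose and 3 fell, where 32.6% and 29.8% of all genes did so. Pax3 rose by 1.33 ± 0.20 in Rorb-positive cells at 2.71 CPM in CD, against 3.96 and 3.04 CPM in WT, 1 of 6 tested, and none of 6 was called in Lhx1-positive cells. In the Otx comparison the 1 gene called of 7 was Gsx2, which had 0.566 CPM in CD Otx-positive cells and 0.542 and 0.235 CPM in WT, and no UMI in Otx-negative cells. The share of all genes called higher was 7.11% for Rorb, 3.15% for Lhx1 and 12.2% for Otx.

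No Iroquois gene tested was called between CD and WT in any of the 6 populations. The filter on low counts left 5 of the 6 members tested in each of the Rorb-, Lhx1- and Otx-positive subsets. It left 4 in neural tube. The fit has 1 residual degree of freedom, from the WT pair, and assumes that the lone CD library varies like WT. The spread shared over genes weighed more, with a median of 8.75 prior degrees of freedom in otic cells. In otic cells 0.0175% of 17161 genes were called higher and 0.0758% lower, with 700 at an unadjusted p under 0.05. The log2 fold changes there were −0.11 ± 0.15 for Irx1, −0.05 ± 0.15 for Irx2, 0.02 ± 0.14 for Irx3, 0.34 ± 0.66 for Irx4, 0.13 ± 0.14 for Irx5 and −0.01 ± 0.23 for Irx6, with an adjusted p of 1.00 for each in edgeR's test. The CD levels of Irx2, Irx4 and Irx6 lay between the WT levels, that of Irx1 lay just below both (58.34 CPM in CD, against 62.59 and 58.45 CPM in WT), and those of Irx3 and Irx5 lay above both.

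The largest differences by unadjusted p were in Otx-positive cells, where 0.0996% of 15058 genes were called higher and 0.113% lower and 707 had an unadjusted p under 0.05. Irx1 had 145 CPM in CD, against 120 and 106 CPM in WT (0.31 ± 0.14, unadjusted p = 0.054), and Irx2 had 67.4 CPM in CD, against 56.5 and 51.0 CPM in WT (0.27 ± 0.15, unadjusted p = 0.11). CD lay above both WT libraries for both genes, and both had an adjusted p of 0.998 in edgeR's test. In Rorb-positive cells, where 0% of 14257 genes were called higher and 0.021% lower and 575 had an unadjusted p under 0.05, the members lay between −0.16 ± 0.19 (Irx1) and 0.07 ± 0.17 (Irx5). In Lhx1-positive cells, where 0.0975% of 13333 genes were called higher and 0.06% lower and 703 had an unadjusted p under 0.05, they lay between −0.23 ± 0.32 (Irx6) and 0.10 ± 0.18 (Irx2).

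**Figure D5:**
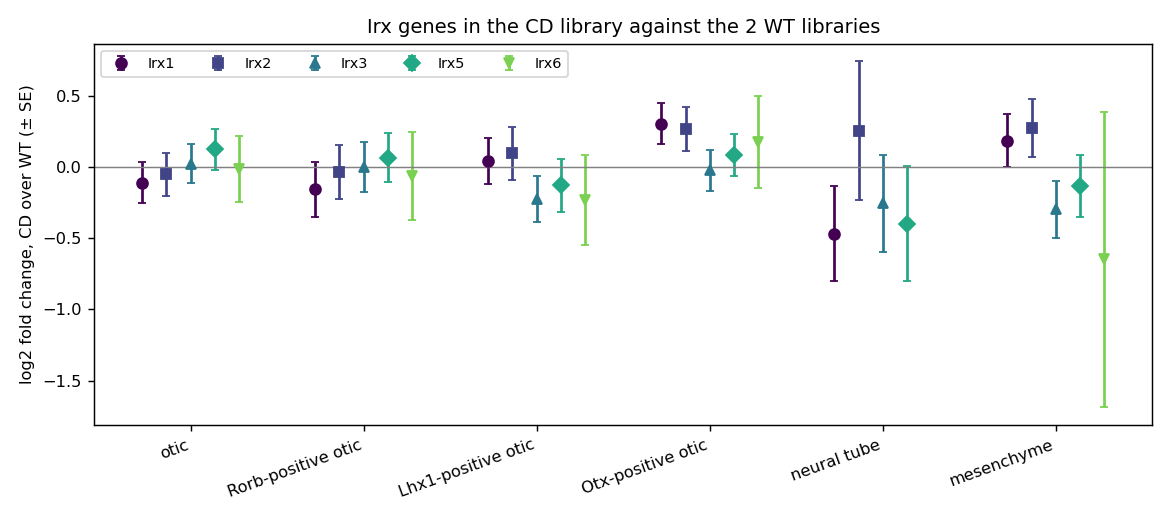
Log2 fold change of 5 Iroquois genes in the CD library over the 2 WT libraries, with bars of 1 SE, in 6 populations. No value was called, and the values in otic cells lie between −0.11 and 0.13.

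In mesenchyme, where 0.0384% of 15611 genes were called higher and 0% lower and 185 had an unadjusted p under 0.05, Irx1 had 0.19 ± 0.19, Irx2 0.28 ± 0.20, Irx3 −0.29 ± 0.20 and Irx5 −0.13 ± 0.22. In neural tube, where 0% of 10982 genes were called higher and 0% lower and 56 had an unadjusted p under 0.05, Irx1 had −0.47 ± 0.33, Irx2 0.26 ± 0.49, Irx3 −0.25 ± 0.34 and Irx5 −0.40 ± 0.40. Without WT replicate 2 the neural tube values, which then have no test, were −0.39 for Irx1, −0.25 for Irx2, −0.25 for Irx3 and −0.71 for Irx5. The difference between the otic and the mesenchyme effect of CD was tested directly and called for no member, with 0% of 17368 genes called higher and 0% lower and 429 at an unadjusted p under 0.05. It was −0.31 ± 0.19 for Irx1, −0.34 ± 0.23 for Irx2, 0.31 ± 0.16 for Irx3 and 0.24 ± 0.16 for Irx5. The difference between the otic and the neural tube effect called 0.1% of 16963 genes higher and 0.0707% lower, with 296 at an unadjusted p under 0.05 and no member, and gave 0.33 ± 0.32 for Irx1, −0.42 ± 0.32 for Irx2, 0.26 ± 0.30 for Irx3 and 0.50 ± 0.31 for Irx5. Without WT replicate 2 these were 0.24 for Irx1, 0.14 for Irx2, 0.29 for Irx3 and 0.91 for Irx5, with no test. None of the TALE, neural tube patterning or neighbouring genes tested was called between CD and WT in the 6 populations. Only 3 of the 12 patterning genes were tested in Rorb-positive cells, and 3 of 12 in Lhx1-positive cells.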

How the data were processed

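Single-cell RNA-seq libraries of pooled E10.5 otic vesicles (1 CD, 2 WT) were given by the authors as deposited UMI counts per gene and cell barcode, unnormalised, from Cell Ranger 6.0 on mm39 per the submitters' processing notes (6.0.0 per the file headers). The 6 members and all gene lists and gates were chosen with earlier results of these data known.

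The cell filter required 1000 detected genes or more and no more than 10% of UMIs from mitochondrial genes. Otic cells had at least 1 Epcam UMI and at least 2 UMIs of Fbxo2, Hmx2, Hmx3 and Pax2 in all. Neural tube cells had Sox3 without Epcam or Sox10, and mesenchyme cells had at least 2 UMIs of Prrx1 and Twist1 in all without Epcam; the other gates were set the same way. A subset gene was positive with at least 1 UMI. Doublets called by Scrublet (scanpy 1.11.5), 3.42% of cells in CD and 2.80% and 3.85% in WT, were kept in the values given and removed in an alternative.

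UMI counts were summed per library and population and tested over all genes with edgeR 4.0.16 (R 4.3.3): TMM scaling, filterByExpr, the quasi-likelihood test and Benjamini-Hochberg adjustment at 0.05, with the library as a block between populations of the same library. SE is the log2 fold change over the root of F. With 1 CD and 2 WT libraries the smallest permutation p is 0.3333, so no permutation test was run. Levels carry exact Poisson intervals and shares exact binomial (Clopper-Pearson) intervals. For odds ratios 0.5 was added to each cell count, and cells under 5000 UMIs were left out of thinned values. All 6 members were described in every population. From each list at most 4 genes past the threshold with the largest change were to be named; Fto and Nkx6-1 were named outside that rule after their values were seen, and the values of some listed genes are not reported here. Alternatives were DESeq2 1.42.0, no filter on low counts, other cell filters and gates, doublet removal, thinning, no library block, and leaving out each library. Sex, litter and batch were not given in the sources used here. The scripts were tested on simulated data.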

Additional observations from a re-analysis of the deposited data

How the results depend on the processing

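The 6 members between populations kept their direction and their side of the threshold in 403 of 418 comparisons of a value with its alternatives. The alternatives were DESeq2, no filter on low counts, other cell filters and gates, doublet removal, thinning, no library block, and leaving out a library. Between CD and WT, 352 of 397 counted as kept. Values without a WT library have no test there. They counted as kept if they moved by less than the SE of the value given, whatever their sign. The 403 and the 352 also include refits that could not differ from the fit given. Removing cells of both the neural tube and mesenchyme gates drops no otic cell. The Rorb, Lhx1 and Otx fits were therefore identical under it, as was CD against WT in otic cells and their subsets. These refits all counted as kept. Causes were not tested.

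No paired analysis was possible between CD and WT because there is 1 CD library and the labels give no pairing. Between populations the replicate block is the library. Without the replicate block the numbers of members called were 6 (otic against mesenchyme), 3 (otic against neural tube), 0 (neural tube against mesenchyme), 5 (Rorb), 4 (Otx) and, for Lhx1, 3 in place of 5, and all genes called came to 254 for Rorb, 121 for Lhx1 and 807 for Otx.

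Members called between neural tube and mesenchyme were 0 in the fit given, 2 with no filter on low counts, 1 with the stricter cell filter, 2 with cells of both gates removed, 2 after thinning, and 0 to 2 when a library was left out, 2 without WT replicate 2. With no filter on low counts the median log2 fold change of all genes was 0.29 for otic against neural tube and −0.17 for neural tube against mesenchyme, where the fit given had 0.07 and −0.01.

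Numbers of all genes called moved by over 1.5 times as follows. With DESeq2 they were 1163 for Rorb, 1855 for Otx, 56 for CD against WT in otic cells, 16 in Rorb-positive cells, and 6 and 1 for the otic effect of CD minus that in mesenchyme and in neural tube. With no filter on low counts they were 1854 for Lhx1, and for CD against WT 155 (otic), 119 (Rorb-positive), 277 (Lhx1-positive), 29 (neural tube) and 54 (mesenchyme). After thinning they were 1293 (Rorb), 712 (Lhx1), 1809 (Otx), and for CD against WT 50 (otic), 48 (Rorb-positive), 51 (Lhx1-positive), 13 (Otx-positive), 15 (mesenchyme) and 7 for the difference to neural tube. With the looser cell filter CD against WT gave 8 (otic), 0 (Rorb-positive) and 50 (Lhx1-positive), and with the stricter one 9 (otic), 1 (Rorb-positive), 49 (Lhx1-positive) and 18 (Otx-positive). With doublets removed it gave 1 (otic), 10 (Rorb-positive), 7 (Lhx1-positive), 128 (Otx-positive) and 0 (mesenchyme). With the stricter otic gate it gave 56 (otic), 1 (Rorb-positive) and 69 (Lhx1-positive). With cells of both gates removed, neural tube against mesenchyme gave 3608, and CD against WT 13 in neural tube and 0 in mesenchyme. Leaving out a library gave 2058 to 3853 (otic against neural tube), 515 to 3271 (neural tube against mesenchyme), 565 to 1530 (Lhx1) and 2267 to 2715 (Otx).

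For CD against WT, values without a WT library have no test and are not listed here. Some of those changed sign, as Irx2 did in neural tube. Values that changed sign in a tested fit were none of them called. Between populations they were Irx5 in neural tube against mesenchyme (−0.13 to 0.52 when a library was left out, below 0 without WT replicate 1), Irx4 for Lhx1 (−0.21 with the stricter otic gate, −0.17 to 0.42 when a library was left out, below 0 without WT replicate 2) and Irx6 for Otx (−0.27 to 0.033 when a library was left out, above 0 without WT replicate 2). For CD against WT in otic cells, thinning gave 0.0068 for Irx2, −0.020 for Irx3, −0.018 for Irx5 and 0.12 for Irx6, and the stricter otic gate 0.0011 for Irx2 and −0.071 for Irx3. In Rorb-positive cells Irx3 had −0.0058 with DESeq2, −0.0044 with no filter on low counts, −0.0036 with the stricter cell filter, −0.00011 with doublets removed and −0.083 with the stricter otic gate, Irx6 had 0.049 with that gate, and thinning gave 0.15 for Irx2 and −0.048 for Irx5. In Otx-positive cells Irx5 had −0.12 after thinning and −0.0051 with the stricter otic gate, where Irx6 had −0.059. In neural tube Irx1 had 0.17 after thinning and Irx3 0.14 with cells of both gates removed. For the otic effect of CD minus that in mesenchyme, Irx4 had 0.030 with doublets removed and 0.038 with the stricter otic gate. For the otic effect minus that in neural tube, Irx1 had −0.29 after thinning and Irx3 −0.049 with cells of both gates removed.

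With doublets removed Irx6 in otic cells averaged 4.37 CPM and Irx1 in erythroid cells 2.10 CPM. Co-detection at 3000 UMIs gave mean log2 odds ratios in otic cells of 1.65 for Irx1 with Irx2, 0.18 for Irx2 with Irx3, 0.10 for Irx2 with Irx5, 1.30 for Irx2 with Irx6, 1.87 for Irx3 with Irx5 and 1.77 for Irx3 with Irx6, and 1.59 for Irx1 with Irx2 in mesenchyme. At 3000 UMIs the genes most like Irx2 and Irx5 shared 2 and 2 of 5 with the lists given, and those most unlike Irx1, Irx2 and Irx5 shared 0, 0 and 0 of 3. The limit of 95% of cells, added after the data were seen, left 1 (Irx1) and 0 (Irx2) of 3 most unlike genes shared.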
